A study of Mus musculus with 26 samples.

Results

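Contactins are cell adhesion molecules of the immunoglobulin superfamily that are held to the outer face of the neuronal membrane by a lipid anchor, and contactin-associated proteins (Caspr proteins) are transmembrane relatives of the neurexins that pair with them. On myelinated axons contactin 1 and Caspr form the axonal side of the junction beside each node of Ranvier, and Caspr2 holds potassium channels of the Kv1 family next to that junction. The other contactins guide axons and take part in synapse formation, and their known partners include receptor tyrosine phosphatases and the amyloid precursor protein family.

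The 8 genes described here are 5 contactins (Cntn1, Cntn3, Cntn4, Cntn5 and Cntn6) and 3 contactin-associated proteins (Cntnap1, Cntnap2 and Cntnap4), taken by symbol from a list of these families. They are 8 of 15172 protein-coding genes to which the authors' annotation gave at least 1 peak, and 805 of 399461 peaks bear their names. The assay was ATAC-seq, whose transposase cuts open DNA and leaves sequencing adapters there, on nuclei of D1 and D2 medium spiny neurons (MSNs), the projection neurons of the striatum that carry dopamine receptor Drd1 or Drd2. The tissue is mouse brain by the labels and nucleus accumbens by the series title. The states are baseline (SS), acute cocaine (SC), chronic cocaine with a prolonged withdrawal (CS) and cocaine relapse (CC), and neither strain, age, dose nor the way nuclei were sorted is given in the sources used here.

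The 26 libraries divide into 2 of D1 SS, 4 of D1 SC, 4 of D1 CS, 4 of D1 CC, 2 of D2 SS, 1 of D2 SC, 8 of D2 CS and 1 of D2 CC, and each group has 1 peak list. No value therefore has a replicate error, no p-value can be given, and each difference is one between 8 lists. The lists held 27917 to 77103 peaks over 13.7 to 42.3 Mb, and read depth is unknown. By the number of peaks on patch scaffolds, alternate sequences of the assembly, the lists fall into a patch-poor set with 4 to 7 such peaks (D1 SS and the D2 lists of SS, SC and CC, 1 or 2 libraries each) and a patch-rich set with 70 to 137 (D2 CS and the D1 lists of SC, CS and CC, 4 or 8 libraries each). These sets are not in the labels, and wherever a comparison crosses them the set, the number of libraries and the state or cell type cannot be told apart. All 8 of 8 pan-MSN markers had a peak in every list. D2 markers had one in 1 of 9 genes in D1 SS and in 7 or 8 of 9 in the other lists, D1 lists included. Drd1 covered 42.1 to 80.5 bp per Mb of list in D1 lists and 17.4 to 76.5 in D2 lists, so these overlap, whereas Drd2 covered 0 to 63.6 in D1 lists and 115 to 230 in D2 lists. D2 CS, with the highest Drd2 value, also held the highest D2 value of Drd1.

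Start regions with a peak in every list are shown first, because they are the elements of these genes for which a RefSeq start and constant presence coincide. Each sequence is the 250 bases upstream of a RefSeq transcript start in GRCm38.p6, the assembly of mm10, and CG dinucleotides are in capitals. The windows are those of Cntn1 (chr15:92050915-92051164, plus strand), an internal start of Cntn4 (chr6:106118515-106118764, plus strand), Cntn5 (chr9:10904776-10905025, minus strand), the main start of Cntnap2 (chr6:45059811-45060060, plus strand) and an internal start of Cntnap2 near the end of the gene (chr6:47244146-47244395, plus strand).
Cntn1: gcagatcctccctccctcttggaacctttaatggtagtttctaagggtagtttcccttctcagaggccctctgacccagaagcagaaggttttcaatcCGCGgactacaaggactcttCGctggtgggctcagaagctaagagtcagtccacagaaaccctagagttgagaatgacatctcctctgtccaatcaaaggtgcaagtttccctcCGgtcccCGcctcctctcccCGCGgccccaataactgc
Cntn4 internal: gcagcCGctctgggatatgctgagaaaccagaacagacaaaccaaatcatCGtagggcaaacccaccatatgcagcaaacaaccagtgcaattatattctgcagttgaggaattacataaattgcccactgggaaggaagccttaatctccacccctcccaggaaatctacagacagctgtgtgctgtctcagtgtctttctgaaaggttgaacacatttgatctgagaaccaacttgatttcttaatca
Cntn5: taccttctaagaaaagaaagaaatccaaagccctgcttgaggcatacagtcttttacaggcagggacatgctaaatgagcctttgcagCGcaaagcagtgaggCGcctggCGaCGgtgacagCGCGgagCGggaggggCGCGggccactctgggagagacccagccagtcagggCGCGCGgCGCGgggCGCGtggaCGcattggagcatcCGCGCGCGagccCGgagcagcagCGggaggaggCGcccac
Cntnap2: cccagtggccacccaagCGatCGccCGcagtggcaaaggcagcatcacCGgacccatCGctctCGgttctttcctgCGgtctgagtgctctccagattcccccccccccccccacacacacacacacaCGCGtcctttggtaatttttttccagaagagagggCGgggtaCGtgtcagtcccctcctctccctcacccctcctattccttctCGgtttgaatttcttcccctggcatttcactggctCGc
Cntnap2 internal: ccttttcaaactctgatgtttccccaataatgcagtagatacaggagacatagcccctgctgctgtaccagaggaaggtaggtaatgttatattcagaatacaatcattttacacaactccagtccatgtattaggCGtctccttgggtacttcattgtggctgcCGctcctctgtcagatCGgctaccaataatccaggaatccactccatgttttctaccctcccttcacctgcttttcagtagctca
The Cntn5 window held 24 CG dinucleotides, more than 88.0% of the 32841 RefSeq windows searched, whose median was 6. The main Cntnap2 window held 13 and the Cntn1 window 7, while the internal windows of Cntn4 and Cntnap2 held 2 and 3. GC content was 64.8% for Cntn5, 59.6% for Cntnap2, 53.6% for Cntn1, 45.2% for internal Cntnap2 and 44.4% for internal Cntn4, against a median of 52.4%. A second Cntn4 start in the same region (chr6:106118692-106118941) had 12 CG, and a second Cntn5 start (chr9:10904727-10904976) had 26, so the region open at the internal Cntn4 start holds windows with few and with many. On both strands, the CRE (TGACGTCA, in 1.55% of all windows), the AP-1 site (TGANTCA, 6.75%), the E-box (CACGTG, 6.02%), the NFI motif (TTGGCA, 12.3%) and the GC box (GGGCGG, 32.7%) were searched. The main Cntnap2 window and the second Cntn5 window each held 1 GC box, and the second Cntn4 window held 1 AP-1 site.

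Peaks at the start sites of Cntn1, Cntn3, Cntn4, Cntn5 and Cntnap2 ranked in the upper part of every list, and those of Cntn6 and Cntnap4 varied. The authors' fold enrichment is not scaled between lists, so strength is given as the rank of a peak within its own list, where 100 is the highest fold. For Cntn1, the paranodal contactin, the strongest peak within 1 kb of the 5′ end ranked 61.9, 79.1, 82.3 and 82.1 in D1 neurons (SS, SC, CS and CC) and 70.2, 76.0, 85.5 and 81.3 in D2 neurons (same order). Cntn5, a contactin of auditory and other sensory neurons, ranked 73.4, 89.2, 91.6 and 94.8 in the D1 lists and 89.2, 89.7, 71.3 and 85.8 in the D2 lists in the same order. Cntnap2, which encodes Caspr2, ranked 73.6, 53.3, 87.8 and 90.5 in D1 and 84.9, 71.8, 89.8 and 79.4 in D2. In these 3 genes D1 and D2 values overlapped, and the lowest ranks were those of different lists, D1 SS for Cntn1, D2 CS for Cntn5 and D1 SC for Cntnap2.

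Cntn6, a contactin known from the cerebellum, had the most variable start peak of the contactins. It ranked 32.5, 51.5, 49.8 and 74.1 in the D1 lists and 85.2, 85.6, 33.6 and 83.6 in the D2 lists, again from SS to CC. The 3 D2 lists other than D2 CS were the highest, and D2 CS lay among the D1 lists. Cntn4, which acts in olfactory axon guidance, had a peak at its first start in all 8 lists, ranked 76.7 to 91.6. In D1 CC and D2 SS this peak was named Gm15631 by the annotation, so it is missing from the counts by name.

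Gene assignment also decided what could be said of Cntn3 and Cntnap4. Cntn3 had a peak at its RefSeq 5′ end (chr6:102563824-102564835) in all 8 lists, ranked 77.0 to 91.2. The authors' distance, taken to another transcript, placed it 8.74 kb from a start, and by that distance Cntn3 had a promoter peak in 0 lists. Cntnap4, a Caspr protein known from synapses of interneurons, had a start peak in every list except D1 SC, ranked 29.6 at baseline, 58.7 in withdrawal and 71.1 in relapse for D1 and 42.6, 42.8, 39.6 and 67.0 over the D2 lists. The D2 SS and D2 CC peaks carried the name Gm26994. Cntnap1, which encodes Caspr, had no peak within 1 kb of its start in any list. By name and the authors' distance, 5 or 6 of 8 members had a promoter peak, and by any peak at the RefSeq start 7 of 8 did in every list except D1 SC, where 6 did.

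**Figure D1:**
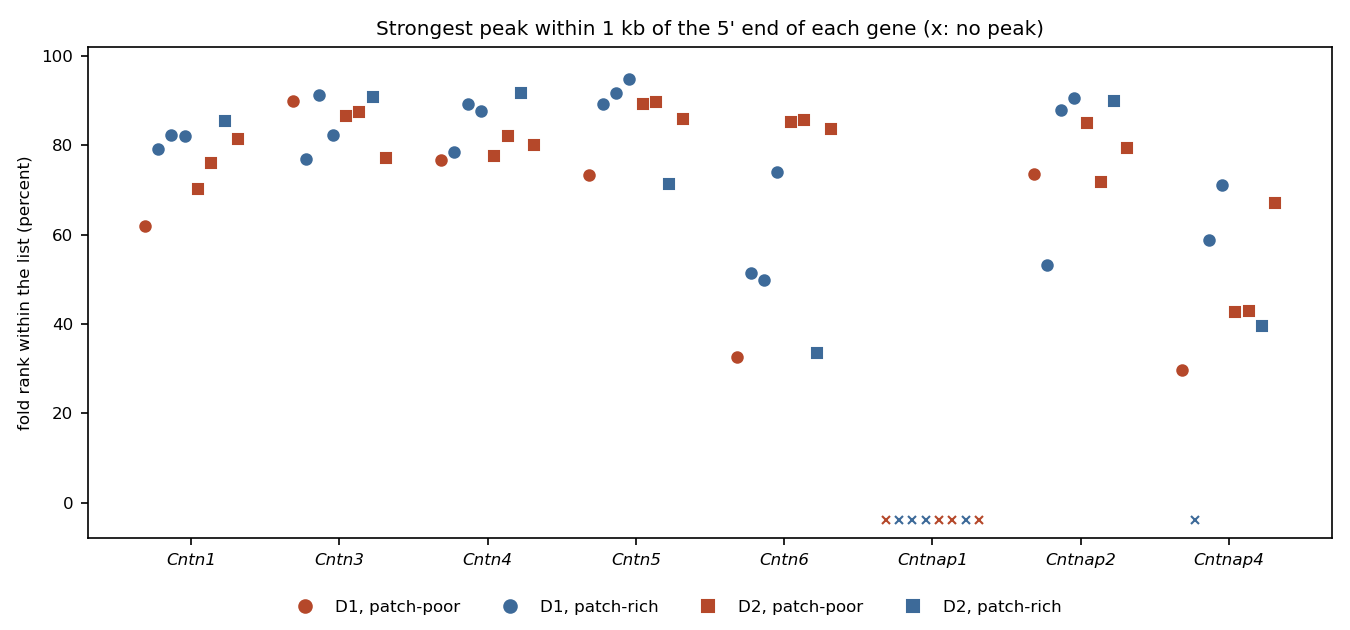
Fold rank within the list (percent, y axis) of the strongest peak within 1 kb of the 5′ end of each gene (x axis) in the 8 lists, with D1 before D2 and the states in the order SS, SC, CS, CC within a gene; circles are D1, squares D2, and crosses mark lists with no peak. Ranks of Cntn1, Cntn3, Cntn4 and Cntn5 are 61.9 or above, those of Cntn6 and Cntnap4 spread widely, and Cntnap1 has crosses only.

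Most of the accessible elements of these genes lay far inside them. Of the 805 peaks, 79 lay within 1 kb of an annotated start, 53 between 1 and 10 kb, 188 between 10 and 100 kb and 485 beyond 100 kb. Peaks beyond 100 kb made up 60.2% of the members' peaks and 14.3% of the peaks of all protein-coding genes, while promoter peaks made up 9.81% and 42.7%. These genes are long: Cntnap2 spans 2241 kb (chr6:45060061-47301393), Cntn5 1271 kb (chr9:9634223-10904775), Cntn4 1023 kb (chr6:105677632-106700141) and Cntn3 401 kb (chr6:102163304-102564614). Cntn6 spans 371 kb (chr6:104492662-104863406), Cntnap4 313 kb (chr8:112569798-112882707) and Cntn1 291 kb (chr15:92051152-92341967), whereas Cntnap1 spans 16.1 kb (chr11:101174617-101190724). Of the 8 members 4 lie on chromosome 6.

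Merged over the 8 lists, the peaks formed 208 regions. Per 100 kb of gene, the density of regions was 6.19 in Cntn1, 5.87 in Cntn4, 3.99 in Cntn3, 2.91 in Cntn5, 2.72 in Cntnap2, 2.70 in Cntn6 and 1.60 in Cntnap4. Cntn4, with 60 regions, therefore held elements about as densely as the much shorter Cntn1, with 18. Cntnap2 held 61, Cntn5 37, Cntn3 16, Cntn6 10, Cntnap4 5 and Cntnap1 1.

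Several deep elements had a peak in every list and ranked near the top of the fold values. The region chr6:47259651-47260392 in Cntnap2, 15.6 kb from an annotated start, had a median rank of 93.1 (range 84.2 to 95.5 over the 8 lists). The region chr6:46717680-46718376, 1658 kb into the same gene, had a median rank of 90.8 (68.7 to 95.7). In Cntn5 the region chr9:10269118-10269887, 635 kb from the 5′ end, had a median rank of 92.7 (68.5 to 98.7). These exceeded the median rank of the start peak of their gene, 82.2 for Cntnap2 and 89.2 for Cntn5.

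Cntn6 showed the same order more sharply, with a region 87.1 kb from its 5′ end (chr6:104579420-104580178) at a median rank of 91.7 (57.6 to 98.4) and its start at 62.8. In Cntn4 the region chr6:106266213-106266909, 589 kb from the first start, reached a median of 89.6 (51.5 to 95.2). A second Cntn5 region, chr9:10229457-10230255, ranked 8.33 in D2 CS and 51.5 to 96.9 in the other lists. Among regions over 1000 bp from a start, 12 of 198 (6.06%) were in all 8 lists, against a background of 9.40% of 38117 such regions of all protein-coding genes. Constant regions over 1000 bp from a start, by the authors' distance, were thus no more frequent in these genes than in others. The 12 include the Cntn3 region at its RefSeq 5′ end, which that distance places 8.74 kb from a start.

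Across the lists, the main difference was in how much of each list lay in these genes. Per Mb of list, the members took 2058 bp in D1 SS and 2261, 2529 and 2343 bp in the SS, SC and CC lists of D2, but 981, 1102 and 1426 bp in the SC, CS and CC lists of D1 and 1027 bp in D2 CS. By peak number they were 0.224% of D1 SS (exact 95% Clopper-Pearson interval 0.173 to 0.286, counting error only), 0.256% of D2 SS (0.217 to 0.299), 0.277% of D2 SC (0.236 to 0.323) and 0.243% of D2 CC (0.207 to 0.282). They were 0.113% of D1 SC (0.0773 to 0.159), 0.132% of D1 CS (0.102 to 0.169), 0.16% of D1 CC (0.133 to 0.19) and 0.125% of D2 CS (0.0873 to 0.174). The 4 patch-poor lists were higher than the 4 patch-rich lists, without overlap. Both SS lists are patch-poor and both CS lists patch-rich, and most patch-poor lists are D2 and most patch-rich lists D1. Set, state and cell type therefore cannot be told apart in this gap. D1 SS is about as short a list as D1 SC and D2 CS, and its share lay with those of the long D2 lists. With lists of equal length the shares were 0.19% to 0.219% in the patch-poor lists and 0.115% to 0.129% in the patch-rich lists. The part of list length in the gap was not tested.

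Cntn4 carried the widest of these gaps. Of the patch-poor lists it covered 611 bp per Mb in D1 SS and 646, 739 and 667 in D2 (SS, SC, CC), and of the patch-rich lists 246, 211 and 259 in D1 (SC, CS, CC) and 284 in D2 CS. In peaks this was 21, 47, 48 and 49 against 8, 11, 24 and 10 in the same order. The mean of the patch-poor lists was 2.66 times that of the patch-rich lists, and the sets did not overlap. Cntn5 covered 335, 411, 501 and 440 bp per Mb in the patch-poor lists and 130, 137, 216 and 128 in the patch-rich lists, in that order, a ratio of means of 2.76. Its lowest patch-poor value was that of D1 SS and its highest patch-rich value that of D1 CC.

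Cntnap2 covered 546, 642, 702 and 670 bp per Mb in the patch-poor lists and 324, 343, 450 and 299 in the patch-rich lists, in the order used for Cntn4, a ratio of means of 1.81. Cntn3 ranged from 120 to 170 in the patch-poor lists and from 61.8 to 115 in the patch-rich lists, and Cntn6 from 126 to 207 and from 63.1 to 99.7. For both genes the sets came close to each other, with D1 CC the highest patch-rich list. In Cntn1 the sets overlapped, at 139 in D1 SS and 210 to 247 in the 3 D2 lists against 132 to 210, with D1 SS level with D1 SC and D1 CC level with D2 CC. Cntnap4 also overlapped, from 43.6 to 100 against 0 to 67.3, and in D1 SC it was listed at 0.

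**Figure D2:**
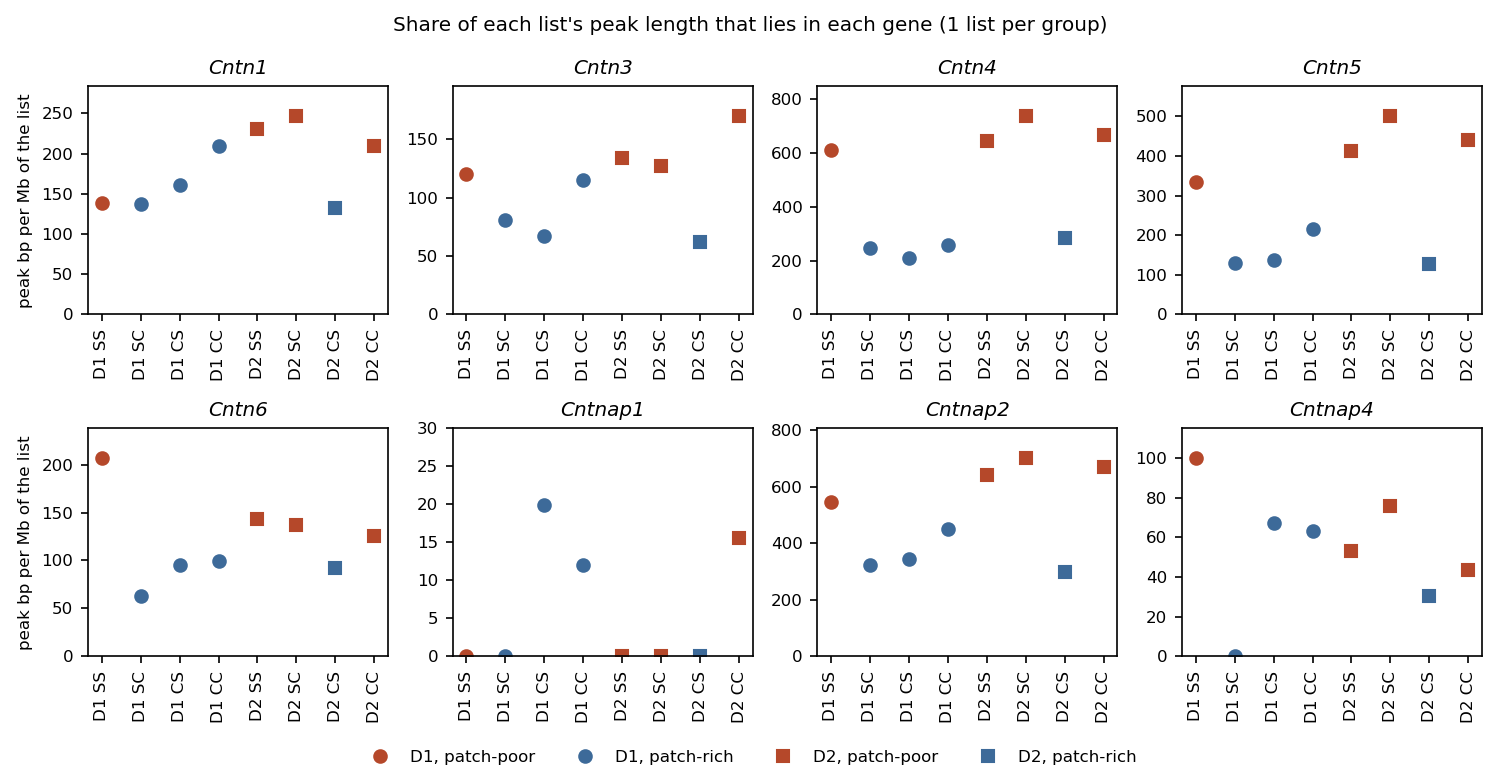
Peak length in each gene, in bp per Mb of the list's total peak length (y axis, each panel with its own scale from 0), in the 8 lists (x axis); each point is 1 list, circles D1, squares D2, red patch-poor and blue patch-rich lists. Cntn3, Cntn4, Cntn5, Cntn6 and Cntnap2 have all red points above all blue points, with the widest gap in Cntn4 (611 to 739 against 211 to 284).

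In all, 5 of 8 members (Cntn3, Cntn4, Cntn5, Cntn6 and Cntnap2) were higher in all 4 patch-poor lists than in any patch-rich list. The background was 3.01% of all protein-coding genes, and 13.6% of the 2286 genes of at least 100 kb, the length class of 7 members. No member was higher in all 4 patch-rich lists, where the background was 6.62%. With lists cut to the length of the shortest the same 5 members were separated (3.95% of all genes and 14.8% of long genes), and the gap of Cntn4 was 571 to 641 against 201 to 284 bp per Mb. With only peaks over 1000 bp from a start, in the gene and in the list total, 3 members remained separated (4.35% of all genes and 10.4% of long genes), Cntn4 (901 to 1030 against 273 to 513), Cntn5 (523 to 708 against 190 to 301) and Cntnap2 (807 to 931 against 465 to 587). Long genes together took 24.7% to 27.7% of the patch-poor lists and 22.2% to 27.1% of the patch-rich lists, and chromosome 6 took 6.03% to 6.21% and 5.62% to 5.88%. The part of gene length and of chromosome 6 in the members' gap was not tested.

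The cell types were not separated by any member. No member had all 4 D1 lists above all 4 D2 lists, where the background was 1.09%, and none the reverse, where it was 0.659%. The 5 separated members had high and low lists of both cell types.

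For genes with a peak in both lists, the larger ratios came from comparisons that cross the patch-poor and patch-rich sets. A gene was called past 2-fold when its covered length, scaled to the list total, changed by at least 1 on the log2 scale with a pseudocount of 200 bp, which understates changes of genes with little coverage. Genes listed at 0 in one list were counted but are given no fold, and for Cntnap1 these zeros depend on assignment by name. In each comparison below the background is the percentage of all protein-coding genes with a peak in either list that passed in the same direction. It was computed for the full lists only. Counts of members past 2-fold under other settings, such as lists of equal length, have no background.

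For D1 neurons after acute cocaine (D1 SC against D1 SS) 4 members were lower (background 7.48%) and none higher (19.7%). The log2 ratio was -1.28 for Cntn4, -1.32 for Cntn5 and -1.60 for Cntn6, and Cntnap4, with 2 peaks in D1 SS, was listed at 0 in D1 SC. In withdrawal (D1 CS against D1 SS) the ratio was -1.50 for Cntn4, -1.25 for Cntn5 and -1.06 for Cntn6. These were 3 members lower (background 3.95%), and 1 was higher (28.1%), Cntnap1, listed at 0 in D1 SS. In relapse (D1 CC against D1 SS) it was -1.21 for Cntn4 and -1.0 for Cntn6, so 2 members were lower (8.91%), and Cntnap1 alone was higher (28.2%). The medians over the members were -1.28, -0.72 and -0.44, against 0.18, 0.04 and -0.04 over all genes. All 3 comparisons set a patch-rich list against the same patch-poor baseline list, D1 SS, and are not independent of each other.

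In D2 neurons CS is the only patch-rich list. Members with a peak in it were lower there than in D2 SS and D2 CC in the full lists. Set, withdrawal, list length and number of libraries cannot be told apart in these comparisons. For D2 CS against D2 SS, the log2 ratio was -1.03 for Cntn3, -1.16 for Cntn4, -1.63 for Cntn5 and -1.08 for Cntnap2. These 4 members were lower (background 15.4%) and none was higher (22.8%), but with lists of equal length 0 members passed. For D2 CC against D2 CS, the ratio was 1.36 for Cntn3, 1.21 for Cntn4, 1.73 for Cntn5 and 1.14 for Cntnap2. With Cntnap1, listed at 0 in D2 CS, 5 were higher (16.0%) and none lower (27.4%), and with lists of equal length 2 passed. The member medians were -1.03 and 1.18, against 0.54 and -0.54 over all genes. Over genes of at least 100 kb the medians were -0.19 and 0.21, in the direction of the members. Of those genes 20.3% passed as lower in the first comparison and 21.1% as higher in the second. Both comparisons share the D2 CS list.

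Within the patch-poor set the D2 states hardly differed in these genes. For D2 SC against D2 SS no member passed in either direction (backgrounds 2.61% higher and 4.78% lower), and the ratios ran from -0.07 for Cntn3 to 0.45 for Cntnap4. With lists of equal length 1 member passed, Cntnap4, in the opposite direction, at 25.5 bp per Mb in D2 SS and listed at 0 in D2 SC. For D2 CC against D2 SS the ratios ran from -0.25 for Cntnap4 to 0.33 for Cntn3, and 1 member was counted higher (3.62%) and none lower (2.96%). For D2 CC against D2 SC they ran from -0.70 for Cntnap4 to 0.41 for Cntn3, again with 1 higher (4.96%) and none lower (2.27%). With lists of equal length Cntnap4 was at 30.2 bp per Mb in D2 CC and at 0 in D2 SC, the reverse of its order in the full lists. The member counted in the full lists was Cntnap1 both times, listed at 0 in D2 SS and D2 SC and covering 608 bp in D2 CC, and neither call was left with gene bodies plus 5 kb. Cntn4 changed by 0.19, 0.04 and -0.15 in these 3 comparisons.

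Within the patch-rich set no member with a peak in both D1 lists compared passed 2-fold. For D1 CC against D1 SC, Cntn5 was higher by 0.71, Cntn6 by 0.60, Cntn1 by 0.59 and Cntn4 by 0.07, all short of 2-fold. Cntnap1 and Cntnap4, both listed at 0 in D1 SC, made 2 members higher (background 20.1%), and none was lower (17.1%). For D1 CC against D1 CS no member passed (7.53% higher and 3.33% lower, but 1 passed with lists of equal length), with Cntn3 at 0.73 and Cntn5 at 0.63. For D1 CS against D1 SC the same 2 genes at 0 were higher (18.3%) and none was lower (3.39%), and Cntn6 had the largest ratio of the rest, 0.54. The D1 CC list holds 77103 peaks and the D1 SC list 28321, and the part of this difference in the ratios was not tested.

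Between the cell types, the comparisons within a set showed little. For D1 SS against D2 SS no member passed (4.97% higher and 21.6% lower, but 1 passed with lists of equal length), with Cntn4 at -0.08, Cntn5 at -0.29, Cntn1 at -0.70 and Cntnap4 at 0.82. For D1 CS against D2 CS 1 member was higher (17.8%), Cntnap1, listed at 0 in D2 CS, and none was lower (4.54%). Cntn4 was at -0.42, Cntn5 at 0.09 and Cntnap4 at 0.99. The comparisons that cross the sets gave the larger differences. For D1 SC against D2 SC, Cntn4 was at -1.56, Cntn5 at -1.89, Cntn6 at -1.03 and Cntnap2 at -1.10, and Cntnap4 was listed at 0 in D1 SC. These 5 were lower (14.7%, and 20.1% of genes of at least 100 kb) and none was higher (17.2%). With lists of equal length 3 passed, and no background was computed for that setting. For D1 CC against D2 CC, Cntn4 alone was lower (-1.34, background 2.90%), Cntn5 was just short of the threshold, and none was higher (9.42%).

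**Figure D3:**
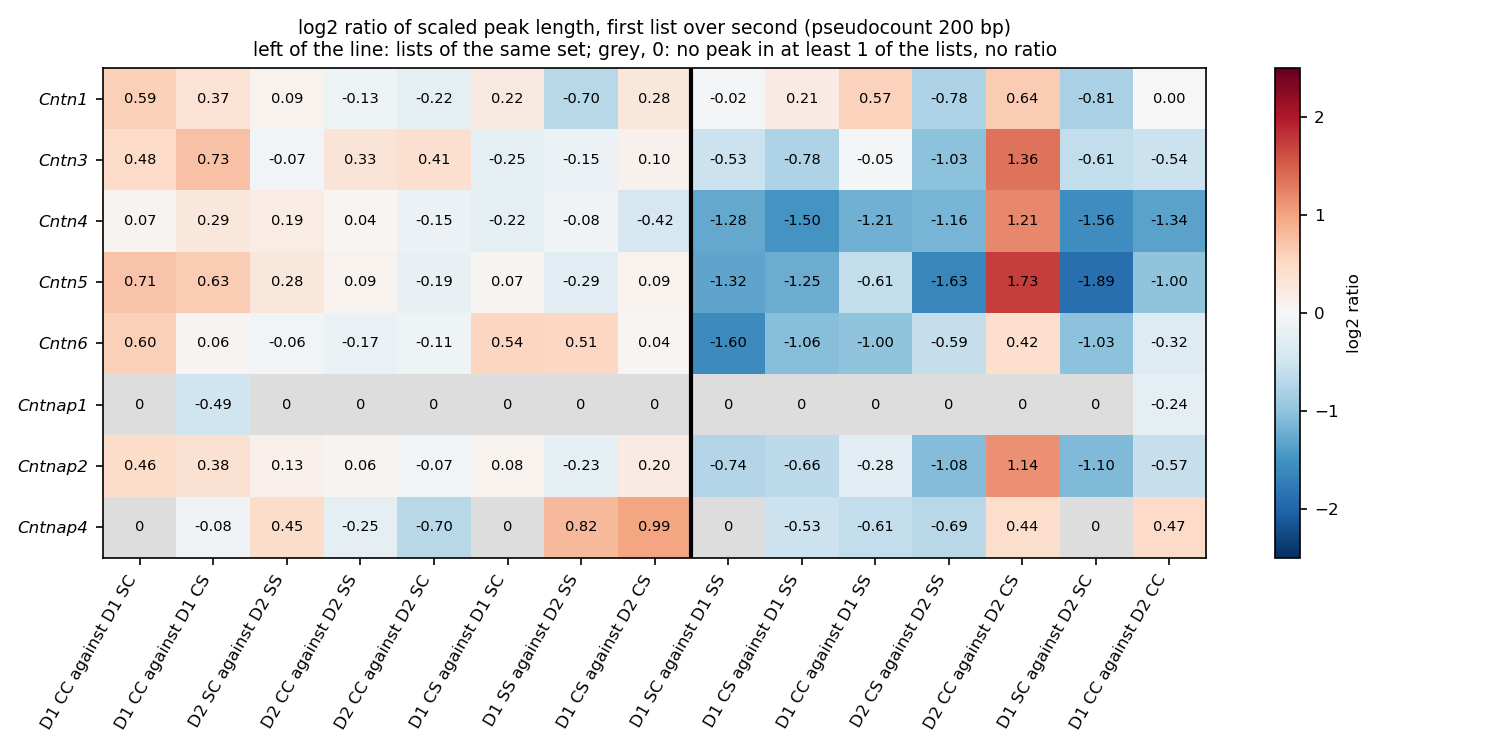
log2 ratio of scaled peak length (colour and number) of each gene (rows) in the 15 comparisons (columns), first list over second with a pseudocount of 200 bp; grey cells marked 0 have no peak in at least 1 of the lists and no ratio. To the left of the line, where lists of 1 set are compared, every ratio lies between -0.70 and 0.99, and to the right Cntn4 passes 1 in size in all 7 comparisons.

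Single regions showed where in the genes the sets parted. Among the 198 regions over 1000 bp from a start, 10 (5.05%) had a peak in all 4 patch-poor lists and in no patch-rich list, against a background of 0.286% and 0.353% of regions in long genes. Cntn4 held 7 of them, Cntnap2 2 and Cntn5 1. With a q-value of at most 1e-05 the number was 4 and with lists of equal length 3, and no background was computed for these settings. The strongest was chr6:105827274-105828019 in Cntn4, 150 kb from the first start, ranked 53.9 in D1 SS and 68.8, 88.4 and 79.8 in the D2 lists of SS, SC and CC. It was absent from D1 CC, the longest list. No member region had a peak in all 4 patch-rich lists alone (background 0.152%).

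A further 23 regions (11.6%) had a peak in D2 SS, D2 SC and D2 CC and in no other list, against 3.60% of all regions, 4.29% in long genes and 3.69% on chromosome 6 outside the members. They comprised 8 in Cntnap2, 8 in Cntn5, 5 in Cntn4, 1 in Cntn1 and 1 in Cntn6. The strongest were chr6:46377924-46378602 in Cntnap2, with a median rank of 82.6, and chr6:106588550-106589210 in Cntn4, ranked 80.3, 69.8 and 76.6. These 3 lists are at once D2, patch-poor and long, and D2 CS, which is D2 but patch-rich and short, lacks the regions. With lists of equal length 5 such regions were left, and no background was computed for that setting.

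For D2 against D1 as such the data offered 1 region. chr6:106562425-106563054 in Cntn4 had a peak in every D2 list and in no D1 list, with ranks of 56.1, 55.0, 38.8 and 66.3 from SS to CC. That is 0.505% of the members' regions, against 15 of 38117 (0.0394%) over all genes. The reverse pattern, every D1 list without any D2 list, was shown by no region of these genes, and by none over 1000 bp from a start in any protein-coding gene (background 0%). Regions shared by D1 CC and the 3 long D2 lists alone numbered 18 (9.09%, background 7.69%), and 43 (21.7%, background 32.0%) were in 1 list only.

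**Figure D4:**
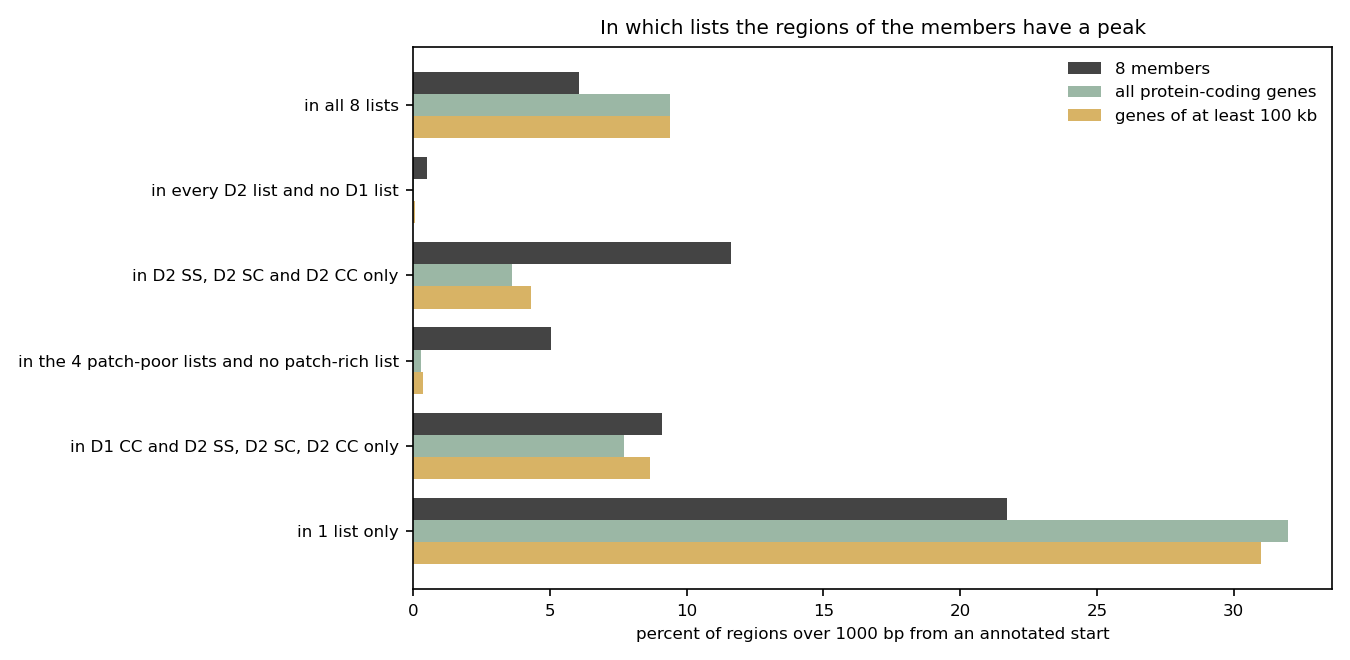
Percent of regions over 1000 bp from an annotated start (x axis) that show each pattern of presence over the lists (y axis), for the 8 genes (black, of 198 regions), all protein-coding genes (green) and genes of at least 100 kb (yellow). The members exceed both backgrounds in the regions of D2 SS, D2 SC and D2 CC only (11.6%) and of the 4 patch-poor lists (5.05%), and lie below them for regions in 1 list only (21.7%).

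**Figure D5:**
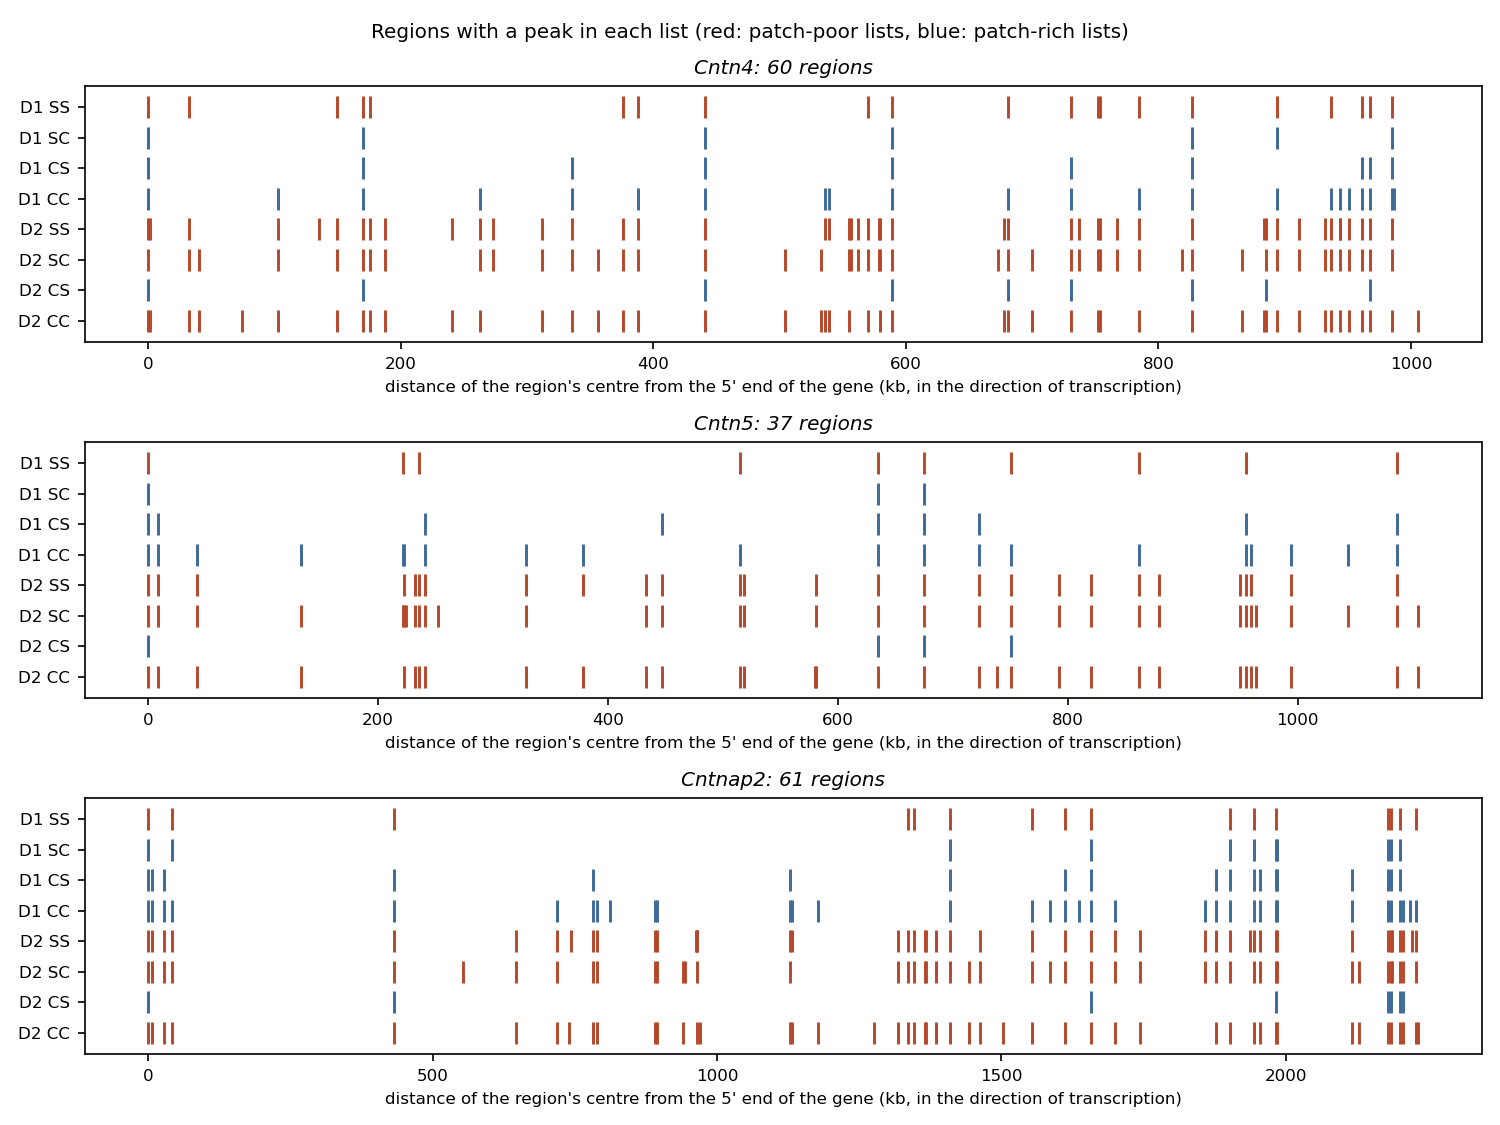
Position of each merged region that has a peak in a list (rows), as distance of the region's centre from the 5′ end of Cntn4, Cntn5 and Cntnap2 in kb (x axis); red rows are patch-poor and blue rows patch-rich lists. Elements lie both near the start and deep in each gene, and the D2 SS, D2 SC and D2 CC rows are the densest. Cntnap2 has no region between 42.3 and 432 kb, but regions were built only from peaks that bear the gene's name. In Cntn4 D1 SS has more regions than D1 SC, merged from 21 and 8 peaks.

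Within a set, single strong elements still differed between lists. In Cntn4 the region chr6:106408483-106409202 was absent from D1 SC and present in the 7 other lists, at rank 79.0 in D1 CS and 97.6 in D1 CC, where it was the strongest Cntn4 peak. Another, chr6:106571529-106572404, ranked 76.9 in D1 SC, 75.1 in D1 CC and 94.0 in D1 SS and was absent from D1 CS and D2 CS. In Cntnap2 the region chr6:46612707-46613380 ranked 87.2 in D1 CC and was absent from D1 SC and D1 CS. D1 CC, the longest list, had 84 member regions absent from D1 SC and 56 absent from D1 CS, and D1 CS had 1 absent from D1 CC. These lists hold 77103 (D1 CC), 28321 (D1 SC) and 48469 (D1 CS) peaks. No background over all genes was computed for these counts, so they are not a result about the members. Among the D2 patch-poor lists, the strongest of 24 regions of D2 SC that were absent from D2 SS was chr6:106377261-106377783 in Cntn4, ranked 68.0. In the other direction 22 regions of D2 SS were absent from D2 SC, the strongest chr9:10526443-10527003 in Cntn5, ranked 63.0. A background was not computed for these D2 counts either.

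Cntnap1 stood apart as the short member with a single region. This region (chr11:101183537-101184213) lay 9.26 kb inside the gene and was present in D1 CS (495 bp, rank 39.5), D1 CC (507 bp, rank 18.8) and D2 CC (608 bp, rank 18.0), and Cntnap1 was listed at 0 in the other 5 lists. With lists of equal length it was left in D1 CS alone. These zeros rest on assignment by name: any peak in the gene body plus 5 kb gave Cntnap1 14.2, 39.8, 55.8 and 38.1 bp per Mb in the D1 lists (SS to CC) and 24.6, 25.6, 38.3 and 28.7 in the D2 lists. Oligodendrocyte markers, of interest because Caspr sits where myelin meets the axon, had a peak in 7 of 11 genes in D1 CS and D1 CC and in 4 in D2 CC, against 3 to 5 in the lists without the region. Their summed level was 243 to 344 bp per Mb in lists with the region and 205 to 322 in those without, and Mobp, Sox10 and Opalin were at 0 in all 8. Their part in the Cntnap1 peaks was not tested.

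Cntnap4 had 5 regions, none in all 8 lists by name. The region 266 kb into the gene (chr8:112835588-112836226) was in 6 lists, ranked 33.5 to 70.4, and absent from D1 SC and D2 CS. Markers of striatal interneurons, in which Cntnap4 is best known, had a peak in 0, 1, 4 and 7 of 8 genes in the D1 lists (SS to CC). In the D2 lists they had one in 3, 3, 1 and 3. Cntnap4 covered 100, 0, 67.3 and 63.3 bp per Mb in the D1 lists and 53.3, 75.6, 30.2 and 43.6 in the D2 lists. Its D1 SS value rested on 2 peaks. The lists with 0 or 1 marker, D1 SS, D1 SC and D2 CS, are also the shortest, and the relation of markers and Cntnap4 was not tested.

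The genes most like each member over the lists were found by Pearson's r of scaled peak length among 5523 genes with a mean coverage of at least 1000 bp. Over the 8 lists the gene most like Cntn5 was another member, Cntnap2 (r = 0.995). Cntnap2 itself was most like Tnip3 (0.996), Cntn4 to Pdgfc (0.985), Cntn6 to Cyp2j6 (0.978), Cntnap4 to Plcb2 (0.982), Cntn1 to Pign (0.975), Cntn3 to Prim2 (0.965) and Cntnap1 to Dip2b (0.897). The 8 points share list length and set, and the values are descriptions.

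Of 26 other genes of these pathways (further contactins and Caspr proteins, phosphatase and amyloid precursor family partners, Kv1 channels, and scaffold and adhesion proteins of the node of Ranvier), all 26 had a peak. For D1 SC against D1 SS 2 were higher (background 19.7% of all protein-coding genes) and 2 lower (7.48%). For D2 CS against D2 SS the numbers were 2 (22.8%) and 5 (15.4%), and for D1 SC against D2 SC 4 (17.2%) and 3 (14.7%). The medians were -0.10, -0.25 and -0.12 on the log2 scale. The medians of the members in these comparisons, -1.28, -1.03 and -1.10, lay farther from 0. For D2 SC against D2 SS none was higher (2.61%) and 1 lower (4.78%), and for D2 CC against D2 SS none passed (3.62% higher and 2.96% lower). Cntnap5a, another Caspr protein, resembled the members, with 311, 59.1, 152 and 302 bp per Mb in the D1 lists (SS to CC) and 439, 449, 87.1 and 489 in the D2 lists. Ptprg, a phosphatase that binds contactins 3 to 6, covered 171, 85.7, 250 and 312 in D1 and 269, 259, 77.2 and 265 in D2. In Cntnap5a and Ptprg the lowest values were those of D1 SC (28321 peaks) and D2 CS (27917 peaks). D1 SS, with 28579 peaks, had 311 in Cntnap5a and 171 in Ptprg. The part of list length in these values was not tested. Cntnap5b covered 213 to 261 bp per Mb in the patch-poor lists and 108 to 149 in the patch-rich lists. Chl1 covered 183 to 232 and 124 to 142 in the same order. In the other direction, Aplp1 covered 8.19 to 30.4 in the patch-poor lists and 33.0 to 68.4 in the patch-rich lists. Sptbn4 covered at most 78.5 in the patch-poor lists and more in every patch-rich list. In Cntnap5c the sets overlapped, with the highest value, 89.6, in D2 CS.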

How the data were processed

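The 8 ATAC-seq peak lists of the authors, 1 for each group, were used as deposited. The submitters' processing notes name cutadapt, HISAT, SAMtools, MACS2 and mm10 without versions or roles, and whether libraries were pooled before calling is not stated. Each peak has a fold enrichment, a ratio over the caller's background deposited by the authors and not scaled between lists, and a q-value by the authors of at most 0.0453. The lists hold 0 columns per library.

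By the authors' gene name, peaks of the autosomes (1 to 19) and of X and Y were taken. The smallest was 200 bp wide. Covered length was summed per gene and divided by the list total. Peaks that shared at least 1 bp over the lists were merged into regions. Gene positions and start sequences came from RefSeq (GRCm38.p6). Intervals are exact binomial (Clopper-Pearson), and the steps were tested on simulated data.

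All 8 members are named. Regions named are those in all 8 lists with the highest median rank, those in every list of 1 cell type alone, the strongest of a member and the strongest that differ within a set. The strongest regions of the other list patterns, the other regions of Cntnap1 and Cntnap4, and Cntnap5a and Ptprg among the 26 pathway genes, are named by the size of their values. Cntnap5b, Cntnap5c, Chl1, Sptbn4 and Aplp1 are named for their values in the patch-poor and patch-rich lists. Members, gene lists and tests were chosen with earlier results of these data known. Alternatives were a stricter q-value, lists of equal length (27917 peaks), another pseudocount, other promoter and gene limits, and autosomes alone. Tools were matplotlib 3.10.9, scipy 1.17.1, pandas 2.3.3 and numpy 2.4.6 under Python 3.11.15.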

Additional observations from a re-analysis of the deposited data

How the results depend on the processing

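No paired analysis was possible because the lists hold no values per library, and for the same reason no library could be left out in turn. Cntnap4 changed direction with lists of equal length, where it was listed at 0 in D2 SC, and so passed as lower in D2 SC than in D2 SS and higher in D2 CC than in D2 SC. The separation of Cntn3, Cntn4, Cntn5, Cntn6 and Cntnap2 held the same 5 genes under a q-value of at most 1e-05, lists of equal length, autosomes alone and gene bodies plus 5 kb, and 3 genes with peaks over 1000 bp from a start, an alternative chosen, like the others for this separation, after seeing the data. Lists of equal length lowered the member share to 0.129% in D1 CC, 0.19% in D2 SS and 0.215% in D2 SC. They left 0 members past 2-fold for D2 CS against D2 SS and D2 CC against D2 SS, 1 for D1 CC against D1 SC, D1 CC against D1 CS, D2 SC against D2 SS and D1 SS against D2 SS, 2 for D2 CC against D2 CS and 3 for D1 SC against D2 SC. A pseudocount of 1000 bp left 2 for D1 CS against D1 SS, 1 for D1 CC against D1 SS, D1 CC against D1 SC and D1 CS against D1 SC, and 0 for D2 CC against D2 SS, D2 CC against D2 SC and D1 CS against D2 CS. Gene bodies plus 5 kb left 1 for D1 CC against D1 SC and D1 CS against D1 SC and 0 for D2 CC against D2 SS, D2 CC against D2 SC and D1 CS against D2 CS. A q-value of at most 1e-05 gave 2 for D1 CC against D2 CC and 4 regions in the 4 patch-poor lists alone. Lists of equal length gave 3 such regions and 5 in D2 SS, D2 SC and D2 CC alone. For these counts of members past 2-fold and of regions no background was computed under the alternatives. Whether the shifts concern the members more than other genes is therefore unknown. The cause of these shifts was not tested. Promoter counts stayed within 1.5 times under the 4 alternatives run. List length limits what could be found: regions absent from D1 SC, D1 SS or D2 CS may lie below the calling threshold of a short list.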
